A study of Homo sapiens with 24 samples.

Results

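The heat-shock genes described here are 10 genes encoding inducible chaperones and co-chaperones of the HSF1 response: HSPA6, HSPA1A, HSPA1B, HSPA8, HSPH1, DNAJB1, BAG3, HSPB1, HSP90AA1 and CRYAB. They were taken by symbol from the deposited count tables, where all 10 of 10 were found among 60658 genes. The list was chosen by measured values, since it was proposed after earlier results on these libraries had shown HSPA6 and DNAJB1 at different levels between setups. Levels compared between control groups, and those of HSPA6 and DNAJB1 between any setups, are therefore given as a description with no test.

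The libraries came from cells labelled as the neuroblastoma line SH-SY5Y, in which the circular RNA ciRS-7 (CDR1as) was depleted in 4 ways, called setups here. In the agoshRNA setup a plasmid expressed a short hairpin of a type processed by Argonaute, with no Cas protein. CasRx, an RNA-cutting Cas13 enzyme, was supplied with GFP from a plasmid (pcDNA3_CasRx-GFP) together with a plasmid for a mature guide (gRNA setup) or a precursor guide (pre-gRNA setup). A guide made by chemical synthesis defined the fourth setup, syn-gRNA. Each setup had a knockdown group (KD) aimed at ciRS-7 and a non-targeting control group (NTC), with 3 poly(A), non-stranded libraries in each of the 8 groups and 24 libraries in all. The labels give Lipofectamine 3000 for the plasmids, with more lipid reagent per well for the agoshRNA vectors, and RNA harvest 48 h after transfection. They do not describe how the synthetic guide or its CasRx was delivered, and no untransfected group was analysed here. Expression was transient, and the labels mention no sorting of transfected cells. Setup, delivery and batch therefore cannot be told apart in any comparison between setups. Nothing states that the 3 libraries of a group came from separate cultures, so p-values measure only the spread between these libraries. In such bulk libraries, more cells expressing a gene and more RNA per cell cannot be told apart either.

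Libraries held 10994974 to 16233777 counts on genes, of which mitochondrial genes took 3.36% to 5.13%. The column names mark the libraries of a group A, B and C, and those letters are used below. Libraries of 1 group differed in how counts followed the GC content of genes. The measure was the Spearman correlation, across genes, of a library's deviation from the mean of all libraries with GC content. It ran from -0.828 to 0.787 over all 24 libraries. Within groups it ran, for example, from -0.828 to 0.778 in agoshRNA KD and from -0.588 to -0.355 in syn-gRNA NTC. The 7 noradrenergic neuroblastoma markers checked went partly against the cell label. PHOX2A, STMN2 and ELAVL4 had at most 5 counts in any library, while GATA2, TBX2, HAND1 and CHRNA3 averaged over 10 CPM (counts scaled to 1000000 in all per library). Of 5 kidney-lineage genes, HOXA9, HOXA10, HOXA11 and PAX2 also averaged over 10 CPM, and PAX8 averaged 0.0138 CPM. Summed neuroblastoma markers spanned 58.6 to 134 CPM in agoshRNA libraries and 76.3 to 118 CPM in both CasRx plasmid setups together. Summed kidney-lineage genes spanned 126 to 269 CPM in agoshRNA libraries and 188 to 327 CPM in the CasRx plasmid setups. In syn-gRNA the sums were 77.6 to 88.6 CPM and 206 to 239 CPM. Single markers moved more than the sums: HOXA11 averaged 25.8 CPM in syn-gRNA, 38.2 in agoshRNA, 54.4 in gRNA and 56.2 in pre-gRNA, and HAND1 11.8, 21.7, 26.1 and 26.1 CPM. Their part in the differences between setups was not tested. The table rows at the ciRS-7 locus are linear gene models on opposite strands that overlap and were counted without strand, so the depletion of the circle was not analysed here.

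HSF1 is a transcription factor that is held inactive by chaperones in unstressed cells. When unfolded proteins occupy those chaperones, HSF1 assembles, binds heat-shock elements (inverted repeats of the unit nGAAn) in promoters and raises transcription of chaperone genes. Some of these genes, such as HSPA8 and HSP90AA1, are also expressed at high levels without stress, whereas HSPA6 is known as strictly inducible and is nearly silent in most unstressed cells.

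RefSeq promoter windows (assembly GRCh38.p14, whereas the counts use hg19) matched 9 of the 10 genes, the exception being CRYAB, with 12 windows because some genes have several listed starts. The search was for a pair of facing units, GAANNTTC, which reads the same on both strands, in the 250 bases before each start. It was present in 7 of the 9 genes (HSPA6, HSPA1A, HSPA1B, HSPA8, DNAJB1, HSPB1 and HSP90AA1) and in 7 of the 12 windows. Of all 35116 windows of that length, 5.78% held it, and of all 27305 genes with a window, 7.05% did. A form of 3 alternating units, in which such a pair is extended on 1 side by a further inverted unit, so that each match also contains the pair, was searched on both strands and was found in HSPA6, HSPA8 and HSP90AA1, against 0.441% of all windows. No match was found in the windows of BAG3 and HSPH1, which says only that these letters are not in those stretches. Windows are shown for HSPA6, DNAJB1, HSPA1B and HSPA8, which are 4 of the 7 genes with a match, and for BAG3, which has none, as examples with and without the motif among genes whose counts per library are given below. They are written 5′ to 3′ on the gene's strand, with each match in capitals. They lie at chr1:161524290-161524539 (plus strand, HSPA6), chr19:14518398-14518647 (minus, DNAJB1, the second of its listed starts), chr6:31827488-31827737 (plus, HSPA1B), chr11:123062137-123062386 (minus, HSPA8) and chr10:119651130-119651379 (plus, BAG3).
HSPA6: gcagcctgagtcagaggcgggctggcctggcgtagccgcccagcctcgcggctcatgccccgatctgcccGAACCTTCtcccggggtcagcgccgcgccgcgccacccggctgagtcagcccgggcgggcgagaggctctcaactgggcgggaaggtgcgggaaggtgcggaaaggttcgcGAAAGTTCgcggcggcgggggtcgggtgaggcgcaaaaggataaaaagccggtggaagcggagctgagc
DNAJB1: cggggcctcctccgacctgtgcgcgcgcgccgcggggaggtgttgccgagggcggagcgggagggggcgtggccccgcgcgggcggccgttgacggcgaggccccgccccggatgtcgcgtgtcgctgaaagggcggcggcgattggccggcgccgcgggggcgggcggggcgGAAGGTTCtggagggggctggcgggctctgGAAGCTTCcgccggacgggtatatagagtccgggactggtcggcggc
HSPA1B: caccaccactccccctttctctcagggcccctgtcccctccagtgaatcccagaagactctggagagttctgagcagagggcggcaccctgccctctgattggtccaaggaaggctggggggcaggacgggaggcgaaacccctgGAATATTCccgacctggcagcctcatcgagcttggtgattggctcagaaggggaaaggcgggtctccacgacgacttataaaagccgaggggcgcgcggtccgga
HSPA8: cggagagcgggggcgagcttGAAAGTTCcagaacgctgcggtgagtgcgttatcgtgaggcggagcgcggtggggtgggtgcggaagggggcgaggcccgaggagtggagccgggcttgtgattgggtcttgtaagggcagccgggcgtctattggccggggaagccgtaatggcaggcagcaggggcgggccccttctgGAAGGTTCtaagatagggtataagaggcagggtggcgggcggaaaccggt
BAG3: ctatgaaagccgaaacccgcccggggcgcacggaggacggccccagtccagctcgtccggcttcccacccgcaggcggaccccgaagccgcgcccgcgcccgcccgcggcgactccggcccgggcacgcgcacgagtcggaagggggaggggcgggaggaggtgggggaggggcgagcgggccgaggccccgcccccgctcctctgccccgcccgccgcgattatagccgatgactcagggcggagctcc
The first letters of the matches lie 180 and 69 bases before the start in HSPA6, 77 and 47 in DNAJB1, 105 in HSPA1B, and 230 and 50 in HSPA8. DNAJB1 thus carried its pair of matches within the last 77 bases before that start. In the windows not printed, a match began 106 bases before the start of HSPA1A, 182 before that of HSPB1 and 83 before the second listed start of HSP90AA1. A match is a string of letters and not a measured binding site.

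Per kilobase of gene model, averaged over all 24 libraries, the members spanned a wide range of levels. HSP90AA1, the inducible cytosolic HSP90, stood at 308 CPM per kb. HSPA8, the constitutive HSC70, stood at 264 and HSPA1B, 1 of 2 near-identical stress-inducible HSP70 genes, at 256 CPM per kb. HSPB1 (a small heat-shock protein) followed at 63.9 and DNAJB1 (a J-domain co-chaperone that delivers substrates to HSP70) at 52.9 CPM per kb. BAG3, a nucleotide exchange factor that links HSP70 to autophagy, was at 29.9, HSPA1A at 21.8 and HSPH1, a large HSP70-related exchange factor, at 13.7 CPM per kb. HSPA6 averaged 4.52 and CRYAB (alphaB-crystallin) 0.683 CPM per kb, the lowest of the 10. Neighbours in this order, such as HSPA8 and HSPA1B, overlapped across libraries. HSPA1A made up 7.16% to 8.66% of the reads assigned to HSPA1A and HSPA1B together in every library. The 2 coding sequences are nearly identical, so how reads were split between them is uncertain and their levels are best read together. The related gene HSPA1L had at most 3 counts in a library, and HSPA7, a near-copy of HSPA6, was not analysed here, so reads shared with it are a further uncertainty for HSPA6.

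HSPA6 (ENSG00000173110.7_3, hg19 chr1:161494330-161496700, plus strand), a strictly inducible HSP70, was far higher in the agoshRNA libraries than in any other. Its counts in agoshRNA KD libraries A, B and C were 467, 459 and 408, and in agoshRNA NTC 547, 523 and 458. In gRNA KD they were 6, 11 and 1, and in gRNA NTC 7, 8 and 2. In pre-gRNA KD they were 5, 5 and 0, and in pre-gRNA NTC 7, 12 and 1. The 12 CasRx plasmid libraries thus held at most 12 counts each. The library with 0 counts allows a level of up to 0.193 CPM (3 counts), for counting error only. The syn-gRNA libraries lay between, with 18, 99 and 113 counts in KD and 27, 110 and 127 in NTC. Library A was the low one of its group in both syn-gRNA arms, and even it exceeded every CasRx plasmid library. As levels, HSPA6 averaged 34.0 ± 0.972 CPM (SD, n = 3) in agoshRNA KD and 37.7 ± 3.62 in agoshRNA NTC. The corresponding means were 0.447 ± 0.375 and 0.411 ± 0.236 CPM in gRNA, and 0.218 ± 0.189 and 0.416 ± 0.344 CPM in pre-gRNA. In syn-gRNA they were 6.48 ± 4.61 CPM in KD and 6.13 ± 3.74 in NTC. The highest agoshRNA KD library was 1.06 times the lowest. In the CasRx plasmid groups the SD was smaller in CPM, and ratios between libraries of 0 to 12 counts are imprecise. Library C was the lowest of each CasRx plasmid group, with 1 and 2 counts in gRNA and 0 and 1 in pre-gRNA. The cause of that repeated order was not tested.

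The ratio of mean HSPA6 level in agoshRNA KD to that in gRNA KD was 76.0, to pre-gRNA KD 156 and to syn-gRNA KD 5.24. In the control arm the same ratios were 91.7, 90.7 and 6.15. The denominators in the CasRx plasmid setups rest on sums of 10 to 20 counts per group, so the ratios to them are imprecise, and the lowest agoshRNA KD library was still 40.1 times the highest gRNA KD library. The fitted log2 differences for agoshRNA KD were 6.30 (SE 0.789) against gRNA KD, 7.35 (SE 0.845) against pre-gRNA KD and 2.40 (SE 0.72) against syn-gRNA KD. HSPA6 in gRNA KD differed from syn-gRNA KD by a fitted log2 of -3.89 (SE 0.794) and in pre-gRNA KD by -4.94 (SE 0.849). The difference between the gRNA and pre-gRNA KD groups was 1.05 (SE 0.909), little more than its standard error.

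**Figure D1:**
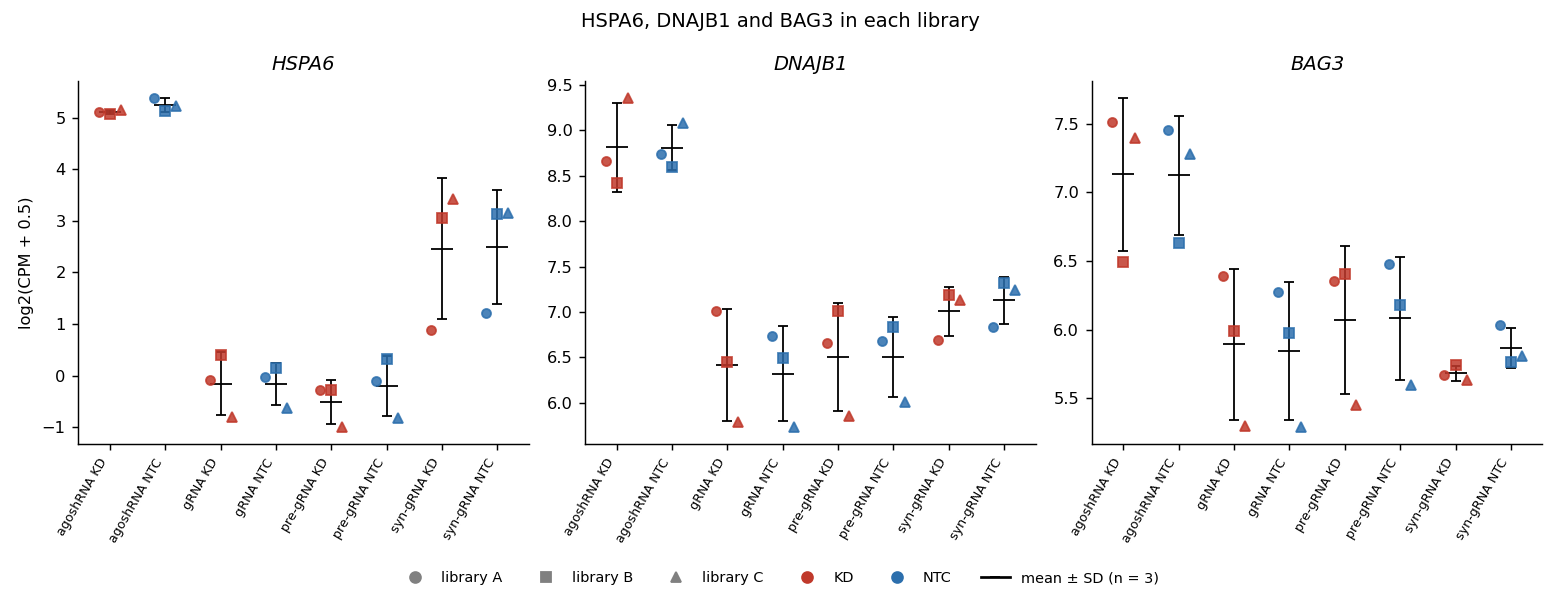
Level of HSPA6, DNAJB1 and BAG3 in each of 24 libraries, as log2(CPM + 0.5) on the vertical axis with its own range in each panel, for the 8 groups on the horizontal axis. Points are libraries A, B and C, KD in red and NTC in blue, and black bars are the mean ± SD of 3 libraries. The 6 agoshRNA libraries lie above the 18 others for all 3 genes, and HSPA6 shows 3 separate levels, with syn-gRNA in the middle.

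DNAJB1 (ENSG00000132002.7_4, hg19 chr19:14625582-14640582, minus strand) showed the second clearest separation. Its counts were 5552, 4769 and 7686 in agoshRNA KD and 5620, 5902 and 6698 in agoshRNA NTC. In gRNA KD they were 1730, 1160 and 758 and in gRNA NTC 1542, 1185 and 713. In pre-gRNA KD they were 1529, 1965 and 889 and in pre-gRNA NTC 1660, 1814 and 993. The syn-gRNA libraries had 1368, 1842 and 1541 counts in KD and 1691, 2121 and 2291 in NTC. Unlike HSPA6, DNAJB1 was well expressed in every library, and the syn-gRNA libraries overlapped those of both CasRx plasmid setups in KD. The mean levels were 469 ± 167 CPM (SD, n = 3) in agoshRNA KD, 90.1 ± 37.1 in gRNA KD, 95.3 ± 35.9 in pre-gRNA KD and 130 ± 23.1 in syn-gRNA KD. In the control arm they were 453 ± 80.9, 82.7 ± 27.3, 93.2 ± 26.1 and 141 ± 24.2 CPM. The agoshRNA mean was thus 5.20, 4.92 and 3.62 times that of gRNA, pre-gRNA and syn-gRNA in KD, and 5.47, 4.86 and 3.21 times in NTC.

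BAG3 (ENSG00000151929.9_2, hg19 chr10:121410882-121437331, plus strand) was the remaining gene with no overlap. Its counts were 2500, 1245 and 1955 in agoshRNA KD and 2300, 1501 and 1909 in agoshRNA NTC. In gRNA they were 1119, 842 and 538 in KD and 1118, 825 and 523 in NTC. In pre-gRNA they were 1238, 1292 and 672 in KD and 1435, 1148 and 745 in NTC. In syn-gRNA they were 668, 672 and 540 in KD and 968, 717 and 842 in NTC. Scaled to depth, agoshRNA library B was the low one in both arms, at 89.5 CPM in KD and 98.7 CPM in NTC, close to the 88.4 CPM of pre-gRNA NTC A. On average BAG3 reached 146 ± 49.8 CPM (SD, n = 3) in agoshRNA KD, 61.7 ± 22.2 in gRNA KD, 69.6 ± 22.9 in pre-gRNA KD and 50.8 ± 2.00 in syn-gRNA KD. HSPA6, DNAJB1 and BAG3 were 3 of 11 genes whose 6 agoshRNA libraries all lay above the 18 others, out of all genes tested (0.0545%). Against the 12 CasRx plasmid libraries alone the same 3 members were among 16 such genes (0.0793%). This count uses the control arm and the 2 genes that led to the list, so nothing is read from it.

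Apart from HSPA6 and DNAJB1, 8 members were tested between KD groups with DESeq2, in 1 model of 24 libraries with p-values adjusted over 20172 genes. BAG3 was higher in agoshRNA KD than in syn-gRNA KD, by 1.53 on the log2 scale (SE 0.383, adjusted p = 0.00679 in DESeq2), with all 3 agoshRNA libraries above all 3 syn-gRNA libraries. It was the 1 of 8 members that passed there, where 3.14% of all genes passed (1.42% in that direction). BAG3 no longer passed without agoshRNA KD A, agoshRNA KD C or syn-gRNA KD C, and over the libraries left out in turn its adjusted p ran from 0.00164 to 0.0894. With edgeR it was just outside, at an adjusted p of 0.0507, where 192 of 20172 genes passed. HSPA1A was higher in agoshRNA KD by a fitted log2 of 1.80 (SE 0.625) and HSPA1B by 1.79 (SE 0.634), with adjusted p = 0.0858 and 0.0963 in DESeq2. Both passed in a model of these 6 libraries alone, each with an adjusted p of 0.0083, where 235 of 18156 genes passed. Both also passed without agoshRNA KD B, the low one of its group, where 2183 of 20137 genes passed, against 634 of 20172 with all libraries.

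Against gRNA KD and against pre-gRNA KD, none of the 8 members passed in DESeq2, and edgeR also called 0. In each of the 2 comparisons, 0.0446% of all genes passed. At an unadjusted p under 0.05, 4 of 8 members passed in each, namely HSPA1A, HSPA1B, HSPH1 and BAG3, where 1.75% and 2.22% of all genes did. The split of reads between HSPA1A and HSPA1B is uncertain, so the 2 are not separate observations in counts of members. All 8 were on the higher side in agoshRNA KD in both comparisons, with a median log2 difference of 1.32 against gRNA KD and 1.02 against pre-gRNA KD. Over all genes tested 50% and 50.2% were positive, and the medians were close to 0. The 2 comparisons share the agoshRNA libraries, so the second is no repeat of the first. Against syn-gRNA KD 7 of the 8 were positive (51.0% of all genes), with a median of 0.72. HSPA8, the exception, had a log2 difference of -0.65 (SE 0.326, adjusted p = 0.313 in DESeq2), and it passed, on the lower side, when agoshRNA KD B was left out (adjusted p = 0.044 in DESeq2), a setting in which calls over all genes also rose, as given above.

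**Figure D2:**
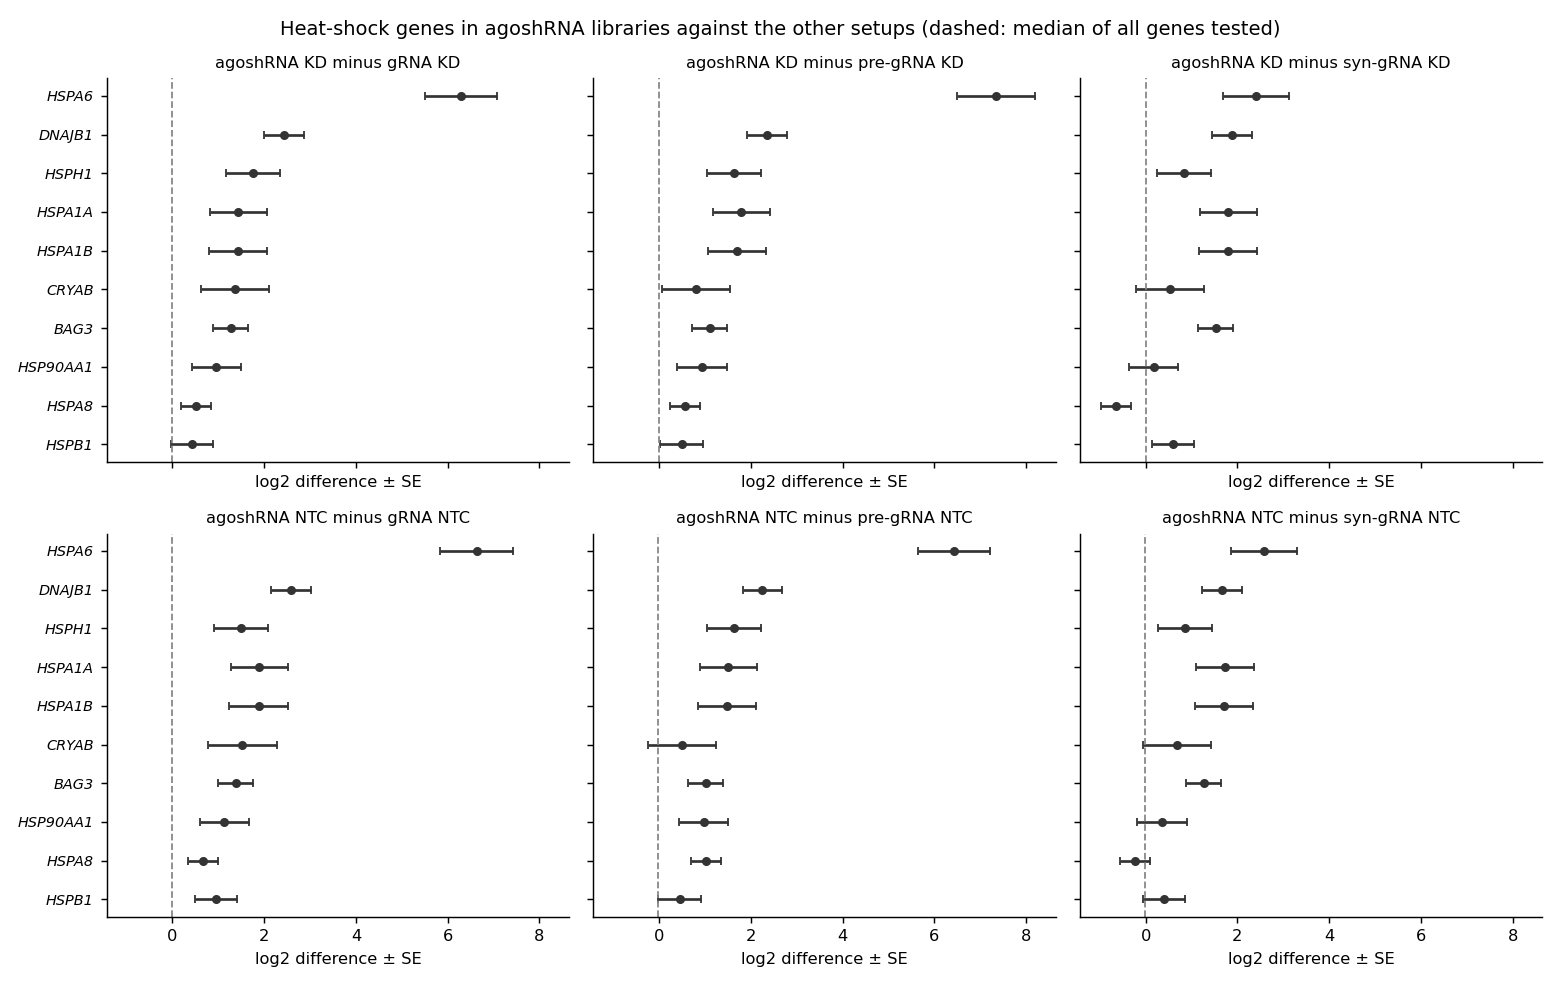
Log2 difference of each member between agoshRNA and the gRNA, pre-gRNA and syn-gRNA setups, for KD libraries (top) and NTC libraries (bottom), with bars of 1 standard error from the model of 24 libraries. The dashed line is the median of all genes tested; HSPA6 lies at 6.30 and 7.35 in the first 2 KD panels, and HSPA8 is the gene below 0 against syn-gRNA in both arms.

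HSPH1 (ENSG00000120694.19_3, hg19 chr13:31709111-31736525) had fitted log2 differences of 1.75 (SE 0.592) against gRNA KD and 1.63 (SE 0.592) against pre-gRNA KD. Its counts in agoshRNA KD were 656, 5264 and 2270, against 542, 867 and 1384 in gRNA KD and 1390, 477 and 1697 in pre-gRNA KD. Library A of agoshRNA KD thus lay within both other groups. Leaving out 1 library at a time gave differences from 0.97 to 2.24 against gRNA KD, 0.84 to 2.11 against pre-gRNA KD and 0.06 to 1.32 against syn-gRNA KD. The lowest value of each range was without agoshRNA KD B and the highest without agoshRNA KD A. With an offset that removed each library's trend with GC content, the HSPH1 difference was 1.54 (SE 0.251, adjusted p = 2.66e-06 in DESeq2) against gRNA KD. Against pre-gRNA KD it was 1.43 (SE 0.25, adjusted p = 3.48e-05), and against syn-gRNA KD 0.96 (SE 0.25, adjusted p = 0.0047). BAG3 also passed in all 3 comparisons with that offset, at 1.29 (SE 0.197, adjusted p = 2.34e-07), 1.14 (SE 0.196, adjusted p = 3.02e-05) and 1.19 (SE 0.198, adjusted p = 2.62e-06) in DESeq2. The differences of both genes were of similar size with and without the offset against the CasRx plasmid setups, and their standard errors were smaller with it. With that offset 19 of 20172 genes passed against each of gRNA KD and pre-gRNA KD, and 1618 against syn-gRNA KD.

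HSPA1B (ENSG00000204388.6_3, hg19 chr6:31795512-31798032) had counts of 23409, 9591 and 18075 in agoshRNA KD and 13567, 3587 and 2373 in gRNA KD. In pre-gRNA KD it had 11530, 5385 and 2957 counts and in syn-gRNA KD 3586, 5378 and 4856. Library A of both CasRx plasmid groups was far above its partners, and gRNA KD A reached 1010 CPM, above the 689 CPM of agoshRNA KD B. Leaving out gRNA KD A raised the fitted difference of HSPA1B between agoshRNA KD and gRNA KD from 1.43 to 2.67. Both HSPA1A and HSPA1B then passed, where 6 of 20148 genes passed, against 9 of 20172 with all libraries. HSPA1A (ENSG00000204389.9_3, hg19 chr6:31783241-31785723) followed the same pattern, with mean levels of 115 ± 45.3 CPM (SD, n = 3) in agoshRNA KD and 42.1 ± 39.0 in gRNA KD. It averaged 35.4 ± 24.6 in pre-gRNA KD and 32.8 ± 9.38 CPM in syn-gRNA KD.

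HSPA8 (ENSG00000109971.13_5, hg19 chr11:122928197-122933938, minus strand) differed from the rest in that it was highest in the syn-gRNA setup. Its counts in syn-gRNA KD were 20619, 26063 and 24187, against 9110, 16954 and 10465 in gRNA KD and 19019, 9893 and 12211 in pre-gRNA KD. Every syn-gRNA KD library lay above every CasRx plasmid KD library once scaled to depth, the lowest at 1554 CPM and the highest of the others at 1268 CPM. Such complete separation below syn-gRNA KD was also seen for HSP90AA1, HSPA6 and HSPH1 in gRNA KD (9.59% of all genes) and for HSP90AA1 and HSPA6 in pre-gRNA KD (9.59%). In the control arm 4 members each were separated in that way in gRNA (8.47%) and pre-gRNA (11.7%), or 2 and 3 without HSPA6 and DNAJB1. The fitted log2 difference from syn-gRNA KD was -1.16 (SE 0.326, adjusted p = 0.0323 in DESeq2) in gRNA KD and -1.22 (SE 0.326, adjusted p = 0.0148) in pre-gRNA KD. In gRNA KD HSPA8 was the 1 of 8 members that passed, where 1.58% of all genes passed (1.14% in that direction). It was again the 1 of 8 in pre-gRNA KD, where 2.52% of all genes passed (1.87% in that direction). The comparison of gRNA KD lost HSPA8 without gRNA KD A, gRNA KD C, syn-gRNA KD B or syn-gRNA KD C (adjusted p 0.00273 to 0.327 over the libraries left out in turn). That of pre-gRNA KD lost it without pre-gRNA KD B, pre-gRNA KD C, syn-gRNA KD B or syn-gRNA KD C (0.0161 to 0.18). In edgeR the adjusted p was 0.112 and 0.0696, where 38 and 183 of 20172 genes passed. With the GC offset the differences were -1.13 (SE 0.271, adjusted p = 0.00293) and -1.18 (SE 0.271, adjusted p = 0.00117) in DESeq2.

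HSP90AA1 (ENSG00000080824.18_3, hg19 chr14:102547075-102606036) averaged 2102 ± 1630 CPM (SD, n = 3) in agoshRNA KD, with 7408 counts in library A and 52769 in library B. It averaged 1195 ± 395 CPM in gRNA KD, 1250 ± 546 in pre-gRNA KD and 1959 ± 174 in syn-gRNA KD. No difference of HSP90AA1 between KD groups passed, and the fitted log2 values ran from -0.79 (gRNA against syn-gRNA) to 0.96 (agoshRNA against gRNA), each with SE 0.539. HSPB1 (ENSG00000106211.8_2, hg19 chr7:75931861-75933612) averaged 133 ± 51.9 CPM in agoshRNA KD, 101 ± 42.1 in gRNA KD, 95.0 ± 43.9 in pre-gRNA KD and 87.8 ± 15.9 in syn-gRNA KD. Those groups overlapped, and HSPB1 passed in no comparison. CRYAB (ENSG00000109846.7_2, hg19 chr11:111779289-111794446) had 26, 32 and 65 counts in agoshRNA KD and 10 to 55 in the other KD libraries. Its log2 difference of 1.36 (SE 0.75) against gRNA KD did not pass.

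**Figure D3:**
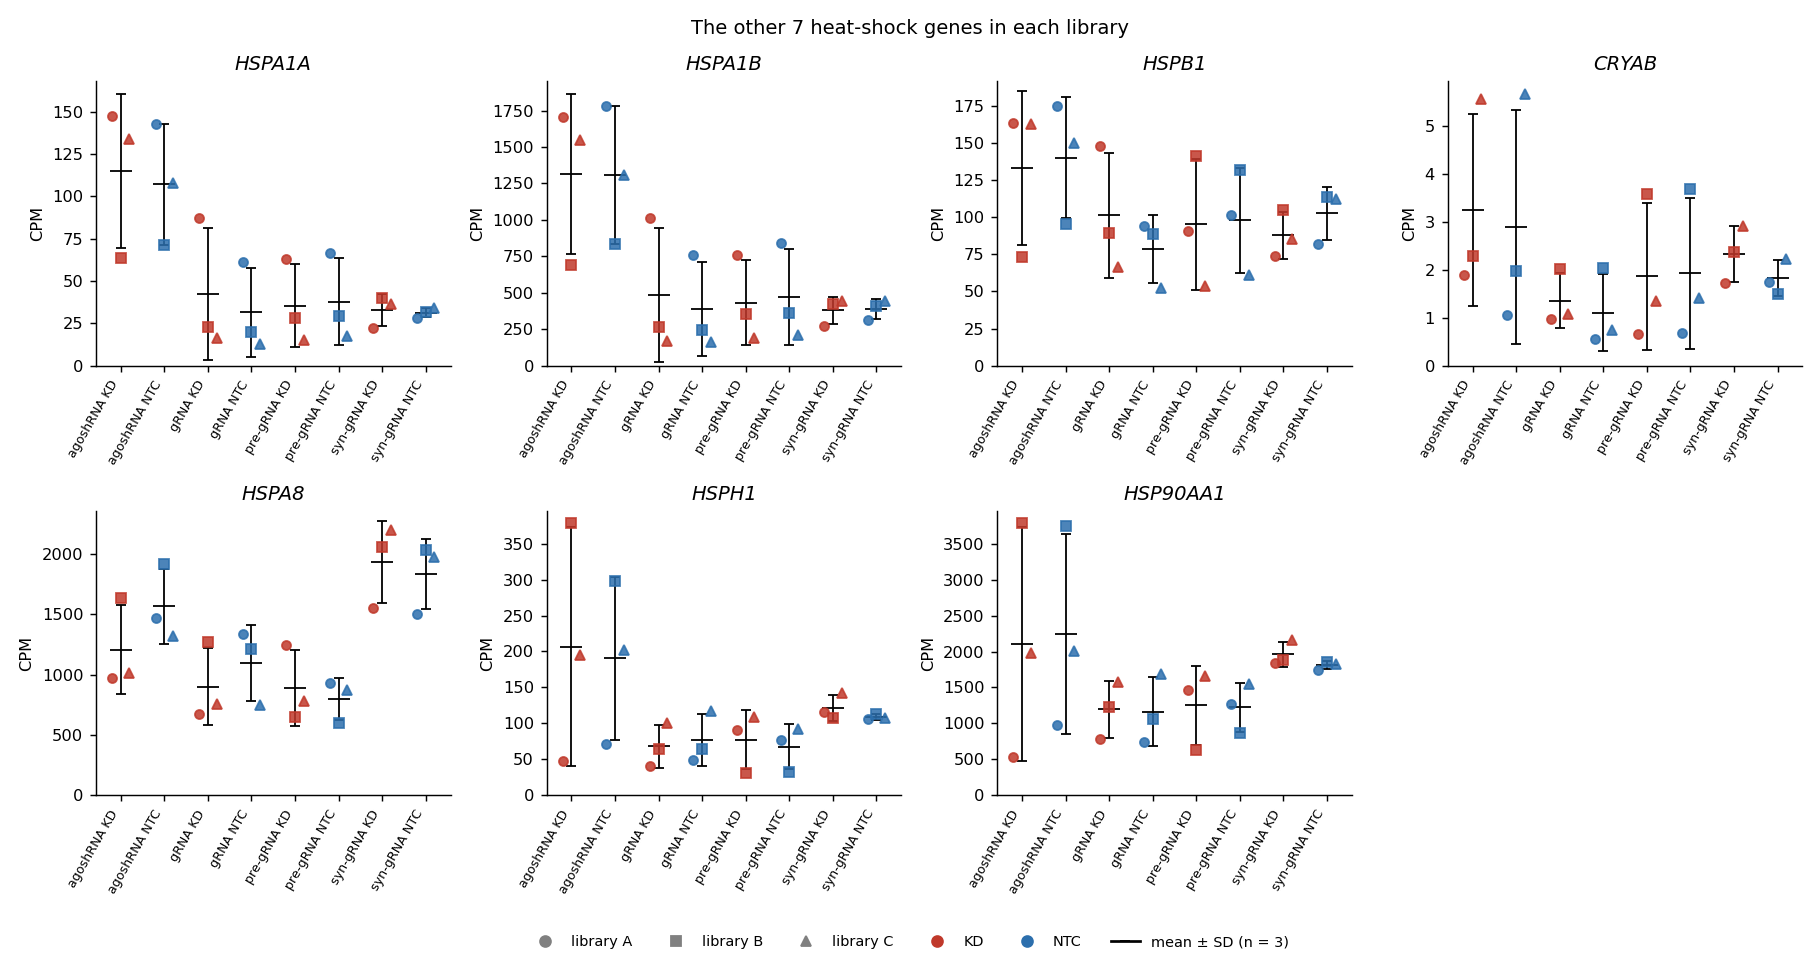
Level in CPM, from 0 on a linear axis, of the 7 members other than HSPA6, DNAJB1 and BAG3 in each library, for the 8 groups on the horizontal axis. Points are libraries A, B and C and black bars the mean ± SD of 3 libraries; HSPA1A and HSPA1B are high in agoshRNA and in library A of gRNA and pre-gRNA, HSPA8 is high in syn-gRNA, and HSP90AA1 and HSPH1 spread most in agoshRNA.

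The gRNA and pre-gRNA groups, which differ in the guide plasmid, are compared next over the 8 members tested. Between gRNA KD and pre-gRNA KD none passed in DESeq2 or edgeR, none had an unadjusted p under 0.05 (0.233% of all genes did), and 0.0% of all genes passed in DESeq2. The fitted log2 differences of the 8 ran from -0.56 (CRYAB, SE 0.754) to 0.36 (HSPA1A, SE 0.625), with a median of 0.02. Those standard errors leave room for differences in either direction. In the control arm, given with no test, 8 of the 10 members were lower in gRNA NTC than in pre-gRNA NTC, with a median of -0.35 and a range from -1.02 (CRYAB, SE 0.758) to 0.37.

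In the control arm, whose values helped to choose the list and are given with no test, agoshRNA was again on the higher side for most members. All 10 members had a higher fitted level in agoshRNA NTC than in gRNA NTC and pre-gRNA NTC, with medians of the 10 log2 differences of 1.51 and 1.26. Against syn-gRNA NTC the median was 1.06, and HSPA8 was again the member on the lower side. Single members were not all ordered alike across the other setups in the 2 arms. All 10 were lower in gRNA NTC than in syn-gRNA NTC, with a median of -0.71. In KD, 4 of the 10 were higher in gRNA than in syn-gRNA, and the median of the 10 was similar, at -0.665. HSPB1 averaged 78.3, 97.9 and 103 CPM in gRNA, pre-gRNA and syn-gRNA NTC, the reverse of its order in KD, with overlapping libraries in both arms. Complete separation, with every agoshRNA NTC library above the other group, was seen for 6 members against gRNA NTC (1.37% of all genes), 5 against pre-gRNA NTC (1.74%) and 5 against syn-gRNA NTC (7.8%). In the KD arm the same counts were 3 (0.768%), 4 (0.892%) and 5 (6.27%). Each of these counts, in both arms, includes HSPA6 and DNAJB1, the 2 genes that led to the list. Without those 2 genes, 1, 2 and 3 of 8 members were separated in KD, and 4, 3 and 3 in NTC. KD and NTC libraries of the same letter deviated together from their group means, so the control arm is no independent repeat of the KD arm.

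The second question of the design was whether depleting ciRS-7 changed these genes within a setup, and no member passed the test. With DESeq2 on the 6 libraries of a setup, 0 of 10 members passed in agoshRNA, 0 of 9 in gRNA, 0 of 9 in pre-gRNA and 0 of 10 in syn-gRNA. The corresponding share of all genes was 0.0% in each setup. Without pairing, no member reached an unadjusted p under 0.05 in any of the 4, where 0.0%, 0.0925%, 0.0107% and 0.297% of all genes did, and edgeR also called 0. If no gene changed, a share of all genes near 0.05 would be expected under that threshold. The test without pairing was thus conservative, and its lack of calls leaves room for changes in the members. HSPA6 was too low to test in gRNA, where its 3 KD libraries held 18 counts together and the NTC libraries 17, and in pre-gRNA, with 10 and 20 counts. The fitted log2 changes ran from -0.34 (HSPA8) to 0.20 (CRYAB) in agoshRNA and from -0.19 (HSPA8) to 0.61 (HSPA1A) in gRNA. In pre-gRNA they ran from -0.16 (HSPA1B) to 0.16 (HSPH1), and in syn-gRNA from -0.24 (HSPB1) to 0.34 (CRYAB). The medians over the members tested were 0.06, 0.26, -0.02 and 0.06, against 0.06, 0.02, 0.01 and 0.00 over all genes.

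The precision differed between setups. In syn-gRNA the standard errors were as small as 0.134 (HSP90AA1), 0.138 (BAG3) and 0.149 (HSPH1), while in agoshRNA the same genes had 0.812, 0.405 and 0.836. HSPA6 was the reverse, at 0.284 in agoshRNA and 0.986 in syn-gRNA. These come from the fit without pairing. With the library letter as a replicate block, the standard errors of HSP90AA1, BAG3 and HSPH1 were 0.193, 0.161 and 0.191 in agoshRNA and 0.08, 0.114 and 0.107 in syn-gRNA. No member passed with the block either. Members with an unadjusted p under 0.05 in that fit were HSPA8 in agoshRNA (-0.37, SE 0.154), HSPA1A (0.46, SE 0.211) and HSPB1 (0.43, SE 0.214) in gRNA, and HSPB1 in syn-gRNA (-0.23, SE 0.105). Over all genes, 105 of 17806, 113 of 18371, 1011 of 18717 and 241 of 18513 had such a p with the block, in the order of the setups used above. In HSPA6 the change was -0.11 in agoshRNA and 0.06 in syn-gRNA, and in DNAJB1 it was 0.09 (SE 0.419) in agoshRNA and -0.13 (SE 0.195) in syn-gRNA. Of the 40 pairs of a member and a setup, BAG3 in syn-gRNA was the 1 in which KD and NTC libraries did not overlap. There the KD levels of 50.3, 53.0 and 49.1 CPM lay below the NTC levels of 65.0, 53.7 and 55.4 CPM, a separation in that direction that 2.23% of all genes showed in that setup. Its log2 change was -0.19 (SE 0.138, adjusted p = 1 in DESeq2). In the authors' deposited table of each comparison, the log2 fold changes of the members ran from -0.944 to 0.535, the smallest p-value was 0.233 and every adjusted p was 1. The difference of the KD effect between setups was tested for each of the 6 pairs of setups in the 24-library model, and 0 of 10 members passed in any, with none at an unadjusted p under 0.05 in DESeq2 and 0 called by edgeR. The share of all genes that passed was 0.0% in each pair. At an unadjusted p under 0.05 it was 0.149%, 0.154% and 0.144% for agoshRNA against gRNA, pre-gRNA and syn-gRNA, 0.178% for gRNA against pre-gRNA, and 0.223% and 0.144% for these against syn-gRNA. These tests took no account of the library letter and were conservative in the same way. With a letter block within each setup, 0 genes passed in each pair. In the same order, 150, 1068, 378, 1840, 581 and 111 of 20172 genes then had an unadjusted p under 0.05. For agoshRNA against gRNA the median standard error over all genes was 0.276 with the block and 0.625 without it.

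**Figure D4:**
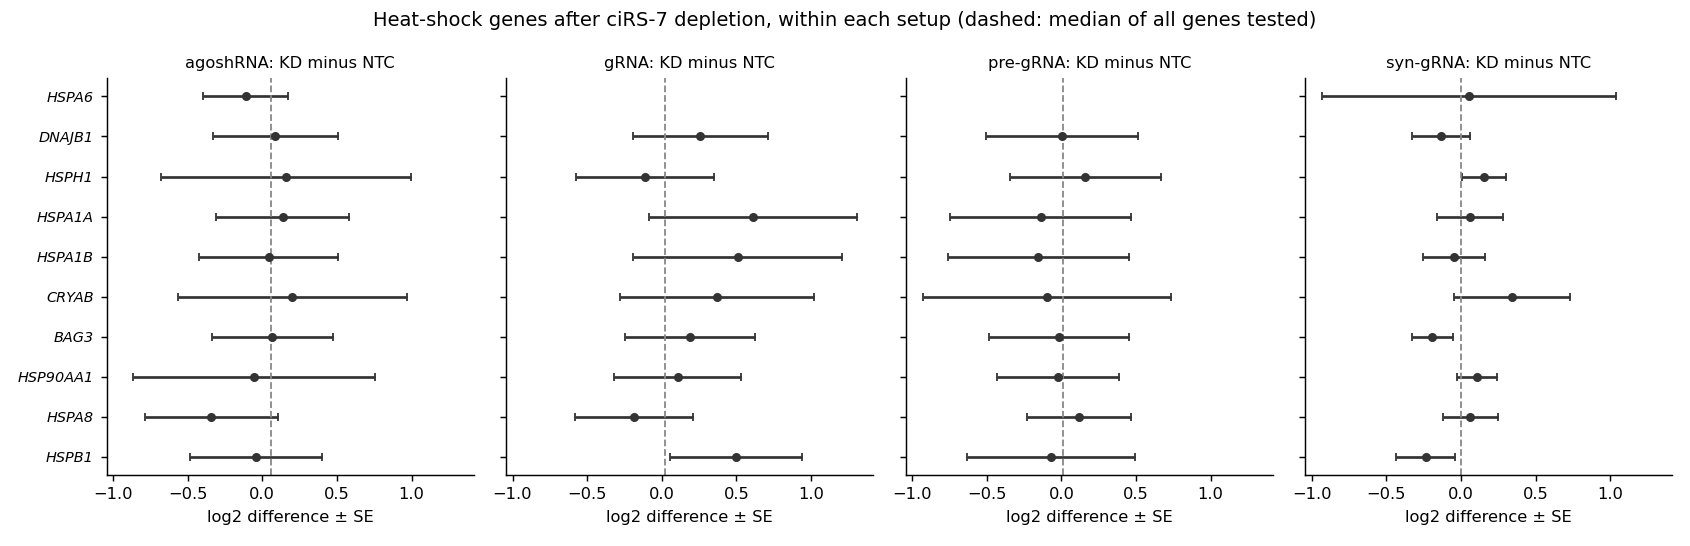
Log2 change of each member between KD and NTC libraries within each of the 4 setups, with bars of 1 standard error from DESeq2 on the 6 libraries of the setup; HSPA6 is absent from gRNA and pre-gRNA, where its counts were too low. The dashed line is the median of all genes tested, and all points lie between -0.34 and 0.61.

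Within groups, the members did not move as 1 block from library to library. HSPH1 and HSP90AA1 were highest in the same library in 8 of 8 groups, whereas the library with the highest HSPH1 had the lowest BAG3 in 8 of 8. HSPA1A and HSPA1B peaked in the same library in 7 of 8 groups. The library with the highest HSPB1 was the one with the lowest HSPH1 in 7 of 8 groups. These patterns ran beside the GC trend of the libraries. HSPB1, the member with the highest GC content in its longest annotated transcript (64.3%), was highest in the library with the most positive GC trend in 7 of 8 groups. HSPH1, the member with the lowest (40.0%), was lowest there in 7 of 8 groups. HSPA6, at 58.4% GC, peaked in that library in 3 of 8 groups. The 6 syn-gRNA libraries all had a negative trend, from -0.663 to -0.251. The part of this trend in the differences between setups was not tested beyond the GC offset given above.

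**Figure D5:**
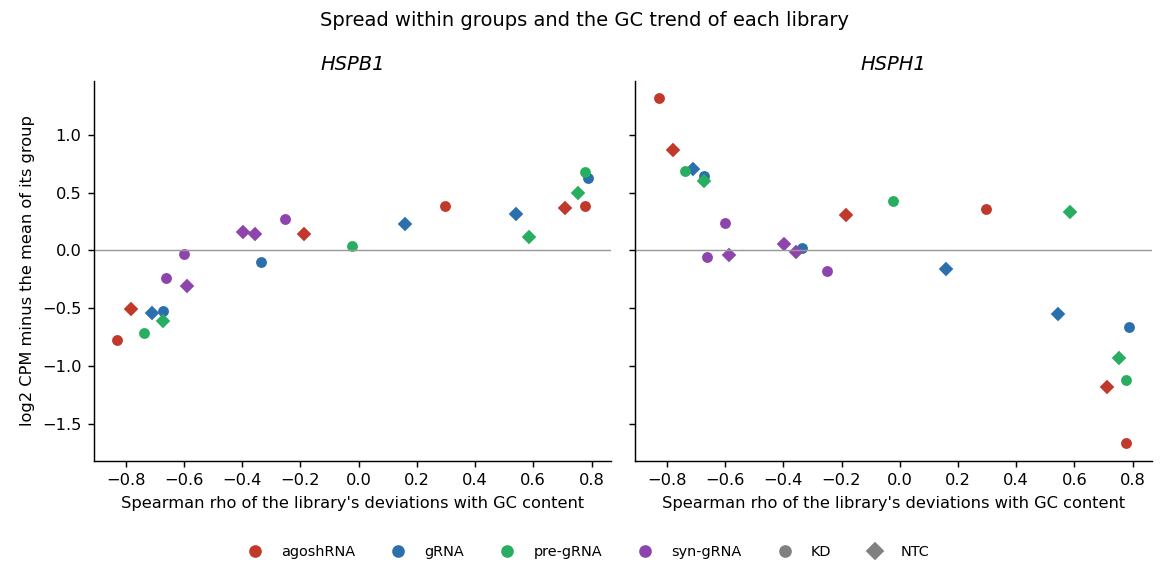
Log2 CPM of HSPB1 (left) and HSPH1 (right) in each of 24 libraries minus the mean of its group of 3, against the Spearman correlation of the library's deviations with gene GC content. Circles are KD and diamonds NTC, coloured by setup; HSPB1 lies above its group mean in libraries with a positive trend and HSPH1 mostly below it.

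Among 20 other genes known to respond to HSF1, such as mitochondrial and cytosolic chaperones, HSP90 co-chaperones and ubiquitin genes, none passed between agoshRNA KD and gRNA KD or pre-gRNA KD. The same 0 was found with edgeR. At an unadjusted p under 0.05 in DESeq2, 7 and 8 of them passed, where 1.75% and 2.22% of all genes did. All 20 were positive in both comparisons, with medians of 0.53 and 0.48, below those of the 8 members tested. Of all 20172 genes, 10076 and 10117 were positive. Against syn-gRNA KD, 18 of 20 were positive (51.0% of all genes), with a median of 0.33. In that comparison 2 of 20 passed, where 3.14% of all genes passed (1.42% higher in agoshRNA KD). The 2 were HSPB8, a small heat-shock protein that acts with BAG3, at 2.31 (SE 0.576, adjusted p = 0.00641 in DESeq2), and STIP1, a co-chaperone that joins HSP70 to HSP90, at 0.96 (SE 0.266, adjusted p = 0.018). Both were named after their values were seen, because only they passed, and HSPB8 rests on a mean of 22.3 normalised counts. Over the libraries left out in turn, the adjusted p of HSPB8 ran to 0.0957 (without agoshRNA KD C or syn-gRNA KD C). That of STIP1 ran to 0.179, passing neither without agoshRNA KD A or C nor without syn-gRNA KD B or C, and in edgeR HSPB8 had 0.0493 and STIP1 0.0708. With the GC offset, 3 of 20 passed against each of gRNA KD and pre-gRNA KD, namely CHORDC1, DNAJB4 and STIP1, where 19 of all 20172 genes passed in each. Against syn-gRNA KD, 3 of 20 passed with it (DNAJB4, HSPB8 and STIP1), where 1618 genes passed. In gRNA KD against pre-gRNA KD, and in each of these against syn-gRNA KD, 0 of 20 passed in DESeq2 and in edgeR, with 0, 1 and 0 at an unadjusted p under 0.05 in DESeq2. In those comparisons 0.0%, 1.58% and 2.52% of all genes passed in DESeq2, and 47, 2695 and 2983 of 20172 had such an unadjusted p. CHORDC1 passed in each of the 2 against syn-gRNA KD with the GC offset, where 990 and 1530 of 20172 genes passed. None of the 20 passed with it between gRNA KD and pre-gRNA KD. Between KD and NTC within a setup, 0 of 20 passed in any setup with either tool, and none had an unadjusted p under 0.05.

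Of 4 regulators of the response, 0 passed in any of these comparisons in DESeq2 or edgeR, and 1 (HSBP1, pre-gRNA KD against syn-gRNA KD) had an unadjusted p under 0.05 in DESeq2. In that comparison 2983 of 20172 genes had such a p. With the GC offset, HSF2 passed between gRNA KD and syn-gRNA KD, where 990 of 20172 genes passed. HSF1 averaged 83.7 CPM, and its log2 difference in agoshRNA KD was 0.04 (SE 0.431) against gRNA KD, 0.03 (SE 0.43) against pre-gRNA KD and 0.37 (SE 0.431) against syn-gRNA KD. HSF2, a related factor, averaged 82.7 CPM, with differences of 0.33 (SE 0.572), 0.37 (SE 0.572) and -0.66 (SE 0.571). HSBP1, which binds HSF1 and dampens it, had differences of 0.06 (SE 0.312), 0.14 (SE 0.312) and -0.50 (SE 0.312). STUB1, the chaperone-linked ubiquitin ligase CHIP, had -0.26, -0.21 and 0.10, each with SE 0.381. Messenger RNA levels do not report the activity of HSF1.

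The genes whose levels followed HSPA6 most closely over the 24 libraries, by the Pearson correlation of log2(CPM + 0.5) among 16300 genes compared, were RPL9 (0.886), DNAJB6 (0.856), ZFAND2A (0.827), LIAS (0.823) and RPL9P8 (0.816). HSPA6 and DNAJB1 correlated at 0.927. For DNAJB1 the 5 closest outside the members were ZFAND2A (0.948), RPL9 (0.915), NRBP1 (0.911), RNU6-1 (0.91) and RPL9P8 (0.889). Libraries of 1 setup share their plasmids and delivery, and the correlations are a description with no p. RPL9, a ribosomal protein gene, had 16203 to 21650 counts in agoshRNA libraries and 10316 to 17940 in the others.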

How the data were processed

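The authors deposited tables of raw read counts per gene for all 24 libraries, with their own DESeq2 log2 fold changes and p-values and, per the file headers, a gene length in bases. Per the submitters' processing notes, Trim Galore, STAR 2.7.3a, featureCounts, DESeq2 and build hg19 were used. The 4 tables hold identical counts. CPM divides a count by the library's total on genes, and CPM per kb divides that by gene length. The deposited counts were tested with DESeq2 1.42.0 (R 4.3.3; at least 10 counts in at least 3 libraries; Benjamini-Hochberg adjusted p under 0.05): KD against NTC on the 6 libraries of a setup, and setups from 1 model of 24 libraries. Counts of members called between setups are over the 8 tested. The function was tested on simulated independent counts, without the letter pairing or GC trends of these libraries. The alternatives were edgeR 4.0.16, TMM factors, other filters, GC offsets, a block on the library letter and leaving out libraries. GC content was that of the longest GENCODE 29 transcript of each gene.

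The members and gene lists were chosen with earlier results of these data known. All 10 members are named, and HSPA6, DNAJB1 and any member called between agoshRNA KD and a CasRx plasmid group are given per library. Other HSF1-responsive genes were to be named where called in at least 2 comparisons between KD groups. Per-library values of BAG3, HSPA1B, HSPA8 and HSPH1 were added after their values were seen. Column letters could not be linked to the replicate numbers of the labels. The letters pair KD with NTC libraries: deviations from group means correlated at 0.311 to 0.956 across genes for the 12 same-letter pairs, and at -0.918 to 0.402 for other letters. Each table holds 24 columns of the authors' normalised values, which were not used.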

Additional observations from a re-analysis of the deposited data

How the results depend on the processing

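Depth limits HSPA6 in the CasRx plasmid setups (at most 12 counts a library) and CRYAB (at most 70), and the 3 libraries of a group limit all tests between setups. The number of the 8 members called between KD groups depended on the setting, and the cause was not tested. With GC offsets it was 2 for agoshRNA against gRNA and 2 against pre-gRNA (BAG3 and HSPH1 in both, 0 without offsets), and 3 against syn-gRNA (BAG3, HSPA1A and HSPH1). In the model of only the 6 libraries of that last pair it was also 3 (235 of all genes). With edgeR it was 0 for agoshRNA, for gRNA and for pre-gRNA against syn-gRNA, where DESeq2 gave 1 each. Calls over all genes were also fewer there, 192, 38 and 183 with edgeR against 634, 318 and 508 with DESeq2. Leaving out 1 library at a time gave 0 to 2 for agoshRNA against gRNA. The 2 were without gRNA KD A, where 6 of all genes were called, against 9 with all libraries. For agoshRNA against syn-gRNA the number was 0 to 4 (4 without agoshRNA KD B, where calls over all genes rose from 634 to 2183). For gRNA and for pre-gRNA against syn-gRNA the number was 0 to 1. It stayed at 0 for agoshRNA against pre-gRNA, and for gRNA against pre-gRNA. Over all genes, GC offsets gave 19, 19 and 1618 calls for agoshRNA against gRNA, pre-gRNA and syn-gRNA, against 9, 9 and 634 without them.

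Between KD and NTC, 0 members were called in each setup under every alternative run. The replicate block on the library letter gave 0 in all 4 and changed no call of a member, in the tests of the KD effect between setups too. Of the log2 differences of single members, none that was called changed sign. The medians of control-arm differences moved by less than the median standard error of a single member's difference. TMM factors in DESeq2 and GC offsets were added for that arm after the data were seen.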
